A study of Mus musculus with 6 samples.

Results

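The comparison described here asks what the loss of Lef1 adds once Tcf1 is already missing in mature CD8 thymocytes of mice. It uses 4 of the 6 libraries of the study, chosen by their genotype labels. There were 2 libraries of cells deficient for Tcf1 and Lef1 (Tcf1-/-Lef1-/-, called DKO) and 2 libraries of cells deficient for Tcf1 alone (Tcf1-/-, called Tcf1 KO). The other 2 libraries came from wild type (WT) mice, whose values are given beside the rest where they help to place a level. All cells were thymocytes sorted for much surface TCRβ, for CD8 and against CD69 and CD24, and per the design text both factors were deleted through CD4-Cre. That Cre acts from the immature stage at which thymocytes carry CD4 and CD8 together. The design text does not say it separately for the Tcf1 KO mice, and the labels give neither age nor strain. No group lacked Lef1 alone, so an effect of Lef1 loss in cells that keep Tcf1 is not part of the comparison.

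Tcf1 (encoded by Tcf7) and Lef1 are sister transcription factors of the HMG-box family. They bind the same short DNA element, can recruit β-catenin or corepressors of the Groucho family, and are known for their joint roles in early thymocytes and in the choice between the CD4 and the CD8 lineage. In the CD8 lineage they are known to hold genes of CD4 cells silent. Expression was measured by RNA sequencing and is given as the authors' FPKM, a level scaled to transcript length and to the mapped fragments of a library. The list of genes used ends alphabetically at Pcsk5, so Tcf7 and other later genes are not analysed here. The files give no read counts, so the depth of the libraries is unknown. The libraries of a genotype correlated across tested genes at r = 0.9856 in DKO, 0.9892 in Tcf1 KO and 0.9916 in WT on the log2 scale, and DKO with Tcf1 KO libraries at 0.9401 to 0.9487. Nothing in the labels ties the libraries to separate mice, so the p-values rest on a spread between samples that may be purely technical. In sorted bulk samples, fewer cells of a type and less RNA per cell cannot be told apart.

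Lef1 was at 131 and 130.2 FPKM in DKO, against 309 and 312 FPKM in Tcf1 KO, and at 316 and 282 FPKM in WT. The DKO libraries were the lowest and lay close together, a log2 change of -1.24 ± 0.063 (SE; limma adjusted p = 0.000286). The reads left on Lef1 in DKO include any exon outside the deleted part, so they do not measure intact transcript. How complete the deletion was in these cells was not tested.

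Of 6761 genes that reached 1 FPKM in 2 or more libraries, 1072 were higher and 1527 lower in DKO than in Tcf1 KO at a limma adjusted p below 0.05. These are 38.4% of the tested genes, 15.9% in the upward and 22.6% in the downward direction. The counts of every gene list below are to be read beside these shares, and no list was tested as a set. Among them, 157 genes (2.32% of those tested) were at least 2-fold higher and 293 (4.33%) at least 2-fold lower on the log2(FPKM + 1) scale, which understates changes of low genes. At least 4-fold changes numbered 22 upward and 81 downward. The median change of all tested genes was -0.028, and the median size of a called change was 0.48. Calls were more frequent among abundant genes, at 57.0% of the 402 genes of at least 100 FPKM and 33.4% of the 1805 genes below 5 FPKM. The direction depended on scaling, since 41.2% of the called genes were higher as deposited, 50.8% with median scaling (1312 higher, 1271 lower) and 50.6% with quantile scaling (1331 higher, 1302 lower). Without Tcf1 KO replicate 1 the counts were 597 higher and 986 lower, and without Tcf1 KO replicate 2 they were 661 and 941. On the first principal component, which held 75.7% of the variance, the DKO libraries stood at -33.7 and -35, the Tcf1 KO libraries at 11.5 and 9.29 and the WT libraries at 24.1 and 23.8.

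**Figure D1:**
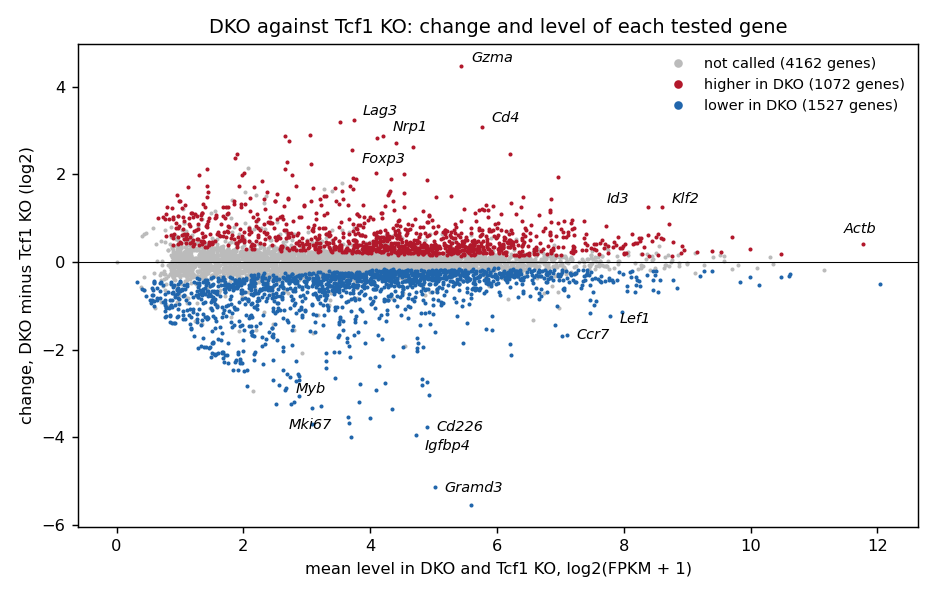
Each point is 1 tested gene, with its mean level in DKO and Tcf1 KO as log2(FPKM + 1) on the x axis and its log2 change, DKO minus Tcf1 KO, on the y axis. The 1072 genes called higher and the 1527 called lower are coloured, and the named genes run from Gzma at 4.47 to Gramd3 at -5.14.

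Gene models with provisional names, such as those ending in Rik, were left out of the rankings that follow. Of the rest, the largest rise was in Gzma, a granzyme that killer cells store in their granules, with 57.3 and 107 FPKM in DKO, against 3.88 and 1.62 FPKM in Tcf1 KO (log2 change 4.47 ± 0.41, adjusted p = 0.0011). Both DKO libraries lay far above both Tcf1 KO libraries, which were near the 1.41 and 2.41 FPKM of the WT libraries. Lag3, an inhibitory receptor that binds MHC class II, followed with 26.6 and 19.7 FPKM in DKO, against 1.47 and 1.6 FPKM in Tcf1 KO (3.24 ± 0.16). The chemokine receptor gene Ccr2 had 15.4 and 24.3 FPKM in DKO, against 1.19 and 1.27 FPKM in Tcf1 KO (3.19 ± 0.20). Cd4, whose product is the MHC class II co-receptor, had 129 and 63.7 FPKM in DKO, against 15.1 and 6.27 FPKM in Tcf1 KO (3.09 ± 0.48, adjusted p = 0.00576). The WT libraries held 1.41 and 0.65 FPKM of Cd4, so the Tcf1 KO libraries lay between the other genotypes, and the 3 genotypes did not overlap.

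Other genes at the top encode signalling and surface proteins. Nrp1, the co-receptor neuropilin, had 31.7 and 31.2 FPKM in DKO, against 3.53 and 3.27 FPKM in Tcf1 KO, and Igf1r, the receptor of insulin-like growth factor, had 41.6 and 43.9 FPKM in DKO, against 5.76 and 6.48 FPKM in Tcf1 KO. In both genes the DKO libraries were close together and the Tcf1 KO libraries were above the WT ones, at 1.15 and 1.44 FPKM for Nrp1 and 2.44 and 2.21 FPKM for Igf1r. P2ry1, a receptor for extracellular ADP, had 6.46 and 14.8 FPKM in DKO, against 0.45 and 0.75 FPKM in Tcf1 KO, and Fst, the activin antagonist follistatin, had 6.64 and 3.63 FPKM in DKO, against 0.14 and 0.16 FPKM in Tcf1 KO. Arhgap23 had 5.62 and 5.03 FPKM in DKO, against 0.13 and 0.18 FPKM in Tcf1 KO. The phosphatase gene Cdc25b, whose product activates cyclin-dependent kinases, had 139.7 and 108 FPKM in DKO, against 24.7 and 18.5 FPKM in Tcf1 KO. It rose (2.46 ± 0.17) while the mitotic genes described below fell. Ier3, an early response gene, had 12.8 and 14.3 FPKM in DKO, against 0.87 and 1.06 FPKM in Tcf1 KO. Gzmb, Maf and Foxp3 complete the group and are given with their lineages. Eif3j2 was also among the largest rises (11.2 and 9.04 FPKM in DKO, 0.39 and 0.66 FPKM in Tcf1 KO, 22.1 and 13.3 FPKM in WT). It is a near copy of Eif3j1, with which it can share reads, so its value is uncertain. For these 15 genes the DKO libraries never overlapped the Tcf1 KO libraries, a condition of their choice.

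Among the largest falls, Gramd3, of the GRAM domain family, had 1.1 and 0.52 FPKM in DKO, against 65.8 and 58.3 FPKM in Tcf1 KO (-5.14 ± 0.18, adjusted p = 0.000115). The WT libraries held 67.4 and 53.5 FPKM, close to the Tcf1 KO level. Gpr97, an adhesion G protein-coupled receptor, had 0.44 and 0.64 FPKM in DKO, against 23.8 and 23.3 FPKM in Tcf1 KO, and Gpr55, a receptor for lysophospholipids, had 0.15 and 0.25 FPKM in DKO, against 12.7 and 16.6 FPKM in Tcf1 KO. Cd226, the activating receptor DNAM-1 of killer cells, had 2.46 and 3.84 FPKM in DKO, against 50.9 and 58.5 FPKM in Tcf1 KO (-3.76 ± 0.16), and Amica1, which encodes the junctional adhesion molecule JAML, had 2.45 and 2.88 FPKM in DKO, against 35.6 and 36.7 FPKM in Tcf1 KO. In each of these genes both DKO libraries were at or below 3.84 FPKM, and no Tcf1 KO library came near them.

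The receptor Acvrl1 of the TGF-β family had 0.69 and 0.39 FPKM in DKO, against 13.2 and 15.5 FPKM in Tcf1 KO, and App, the amyloid precursor gene, had 0.08 and 0.1 FPKM in DKO, against 8.05 and 10.5 FPKM in Tcf1 KO. Cd160, a receptor of killer and innate-like T cells, had 1.42 and 1.65 FPKM in DKO, against 27.6 and 29.6 FPKM in Tcf1 KO, and its 16.8 and 15.3 FPKM in WT lay between. Igfbp4, which binds insulin-like growth factors outside the cell, had 1.65 and 2.87 FPKM in DKO, against 46.1 and 50.6 FPKM in Tcf1 KO and 122 and 141 FPKM in WT, so that here the Tcf1 KO libraries lay below the WT ones and the DKO libraries lower still. Further large falls, in Mki67, Ccnb2, Mxd3, Birc5 and Ccna2, belong to the cell cycle.

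**Figure D2:**
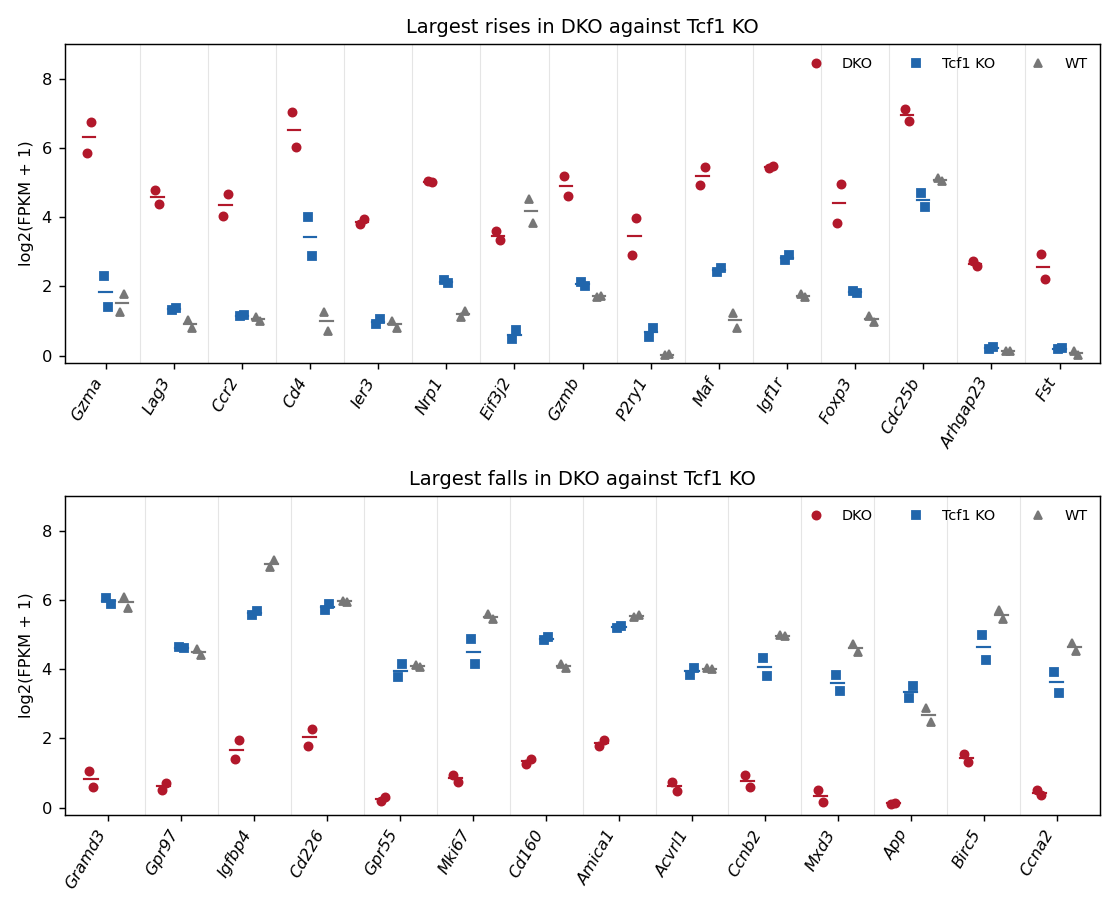
Levels of the genes with the largest rises (upper panel) and falls (lower panel) as log2(FPKM + 1), 1 point per library and a bar at the mean of 2, with DKO, Tcf1 KO and WT side by side for each gene. In the upper panel the DKO points lie above the Tcf1 KO points for each gene, with WT near Tcf1 KO in most genes but above it in Eif3j2. In the lower panel the DKO points lie below all Tcf1 KO and WT points.

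In absolute level the largest gains were in highly expressed genes. Klf2, a factor that drives thymic exit and quiescence, had 572 and 527 FPKM in DKO, against 219 and 241 FPKM in Tcf1 KO (1.25 ± 0.068). Id3, an inhibitor of E proteins, had 533 and 405 FPKM in DKO, against 191 and 200.1 FPKM in Tcf1 KO (1.25 ± 0.15), and the sodium pump subunit Atp1b3 had 551 and 528 FPKM in DKO, against 299 and 295 FPKM in Tcf1 KO (0.86 ± 0.044). The actin gene Actb had 3953 and 4054 FPKM in DKO, against 2999 and 3005 FPKM in Tcf1 KO (0.42 ± 0.055), Hmha1 had 1035 and 952 FPKM in DKO, against 716 and 631 FPKM in Tcf1 KO, and the CD3 chain Cd3g had 1096 and 1154 FPKM in DKO, against 890.4 and 938 FPKM in Tcf1 KO. The largest losses were in housekeeping genes of translation and metabolism and in H2-K1, an MHC class I heavy chain. Eef1a1, the elongation factor that brings aminoacyl-tRNA to the ribosome, had 3361 and 3651 FPKM in DKO, against 4932 and 4973 FPKM in Tcf1 KO (-0.50 ± 0.065). Gnb2l1, which encodes the ribosomal scaffold RACK1, had 744 and 801 FPKM in DKO, against 1063 and 1058 FPKM in Tcf1 KO, and Gapdh of glycolysis had 377 and 350.4 FPKM in DKO, against 589 and 515 FPKM in Tcf1 KO. Eef2, the translocation factor, had 848 and 939.8 FPKM in DKO, against 1135 and 1134 FPKM in Tcf1 KO, and Fau, a ribosomal protein gene, had 1359 and 1507 FPKM in DKO, against 1733 and 1714 FPKM in Tcf1 KO. H2-K1 had 1417 and 1367 FPKM in DKO, against 1724 and 1749 FPKM in Tcf1 KO. Some of these calls depended on single choices. They were not all near the threshold, since the limma adjusted p was 0.00326 for Actb and 0.00313 for Eef1a1. Libraries were left out 1 at a time, and "without either library" means that the outcome was the same whichever of the 2 was missing. Here and below, calls that ended under another pseudocount, filter or fit are not all given. The call of Cd3g ended without Tcf1 KO replicate 1 (adjusted p = 0.0777), that of Eef2 without either Tcf1 KO library (adjusted p up to 0.0507), that of Fau without DKO replicate 1, either Tcf1 KO library or either WT library or under quantile scaling (adjusted p up to 0.207) and that of H2-K1 under quantile scaling (adjusted p = 0.249). Without the filter on low values, the calls of Actb, Cd3g, Eef1a1, Eef2, Fau and H2-K1 all ended (adjusted p up to 0.211).

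Genes of the CD4 helper lineage went both ways. Of 9 tested, 4 rose and 2 fell, beside 15.9% higher and 22.6% lower among all tested genes, with a median change of 0.22, or 0.021 without DKO replicate 1 and 0.42 without DKO replicate 2. Beside Cd4, Cd40lg, the ligand with which helper cells license B cells, had 6.38 and 8.93 FPKM in DKO, against 2.07 and 1.82 FPKM in Tcf1 KO (1.54 ± 0.16). Gata3, the factor of helper cell fate, had 50.2 and 44.4 FPKM in DKO, against 16.6 and 16.1 FPKM in Tcf1 KO (1.48 ± 0.084), and Ccr4, a chemokine receptor of helper cells, had 16.2 and 15.5 FPKM in DKO, against 9.24 and 6.1 FPKM in Tcf1 KO (0.98 ± 0.20). The call of Ccr4 ended without DKO replicate 1 (adjusted p = 0.0506). For Cd40lg and Gata3 the WT libraries were the lowest, at 0.48 and 0.43 and 11.7 and 13.01 FPKM. The falls were in Ccr8 (0.36 and 0.79 FPKM in DKO, against 11.7 and 12.4 FPKM in Tcf1 KO) and in Il6ra, the interleukin-6 receptor (9.99 and 11.4 FPKM in DKO, against 39.5 and 49.2 FPKM in Tcf1 KO). Bcl6, the factor of follicular helper cells, had 9.45 and 6.93 FPKM in DKO, against 6.75 and 6.88 FPKM in Tcf1 KO and did not pass the test (adjusted p = 0.268), nor did Cd5 and Icos.

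Regulatory T cell genes were also divided: of 11 tested, 4 rose and 6 fell, with a median of -0.54. Foxp3, the defining factor of regulatory T cells, had 13.3 and 30.1 FPKM in DKO, against 2.68 and 2.53 FPKM in Tcf1 KO (2.55 ± 0.34, adjusted p = 0.00351). The 2 DKO libraries differed from each other more than the Tcf1 KO libraries did, but neither reached down to them. Nrp1, whose levels are given above, had the largest rise of this list (2.88 ± 0.091). Ctla4, an inhibitory receptor, had 1.82 and 2.49 FPKM in DKO, against 1 and 1.16 FPKM in Tcf1 KO (0.59 ± 0.14), and Itgae, the integrin CD103, had 385 and 544 FPKM in DKO, against 309.6 and 325 FPKM in Tcf1 KO (0.53 ± 0.15). Nt5e, the ectoenzyme CD73, had 6.11 and 7.26 FPKM in DKO, against 49.2 and 46 FPKM in Tcf1 KO (-2.66 ± 0.12) and 15.2 and 12.4 FPKM in WT, so that its Tcf1 KO level was the highest of the genotypes. Folr4, which encodes a folate receptor relative of regulatory T cells, had 1.06 and 0.82 FPKM in DKO, against 7.65 and 8.48 FPKM in Tcf1 KO (-2.23 ± 0.11). The Ikaros family factors Ikzf2 (5.43 and 5.3 FPKM in DKO, against 16.5 and 14.4 FPKM in Tcf1 KO) and Ikzf4 (-0.87), the receptor gene Gpr83 (-0.77) and Capg (-0.54) fell as well. With at least 5 FPKM required in at least 2 libraries, the call of Gpr83 ended (adjusted p = 0.0511). Il2ra, the high-affinity interleukin-2 receptor chain, had 2.97 and 3.37 FPKM in DKO, against 3.11 and 3.42 FPKM in Tcf1 KO (adjusted p = 0.824). The counts were 2 rises without either Tcf1 KO library and 3 falls without Tcf1 KO replicate 2. Among single calls, that of Ctla4 ended without DKO replicate 2 or either Tcf1 KO library (adjusted p up to 0.0965), that of Itgae without either Tcf1 KO library or either WT library or under quantile scaling (adjusted p up to 0.156), that of Gpr83 without either DKO library or either Tcf1 KO library or under quantile scaling (adjusted p up to 0.0784), that of Capg without DKO replicate 1 or Tcf1 KO replicate 2 (adjusted p up to 0.105) and that of Ikzf4 without Tcf1 KO replicate 2 (adjusted p = 0.0534).

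**Figure D3:**
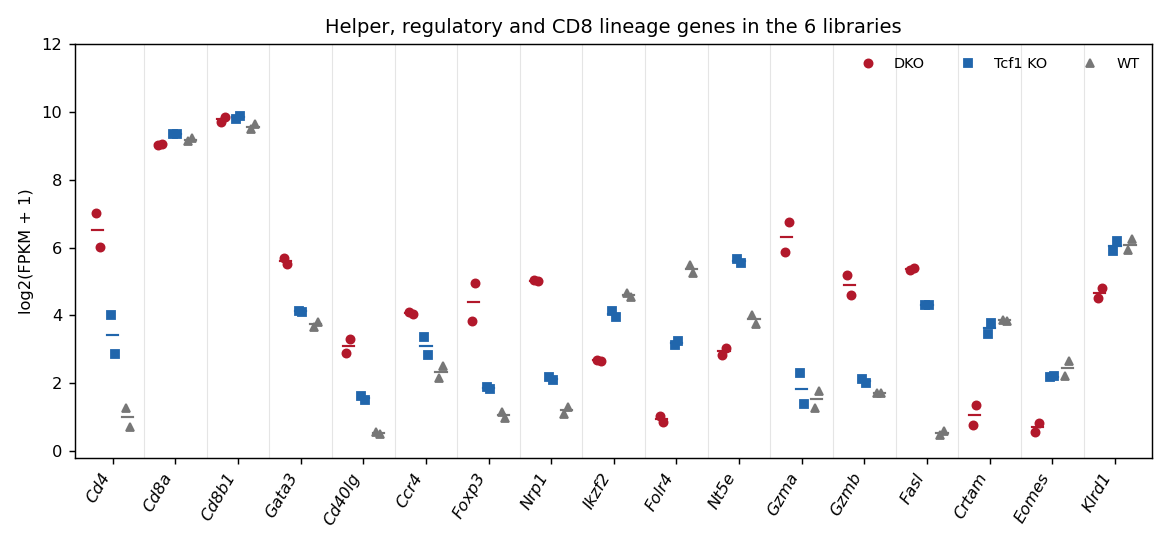
Levels of helper, regulatory and CD8 lineage genes as log2(FPKM + 1), 1 point per library and a bar at the mean of 2, for DKO, Tcf1 KO and WT. Cd4, Foxp3, Nrp1, Gzma and Gzmb are highest in DKO, Nt5e is highest in Tcf1 KO, and Cd8a and Cd8b1 are at about the same height in all 6 libraries.

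Both CD8 co-receptor genes were highly expressed in each library. Cd8a had 516 and 535 FPKM in DKO, against 646 and 656 FPKM in Tcf1 KO (-0.31 ± 0.053, adjusted p = 0.00765), a small fall, and Cd8b1 had 828 and 924 FPKM in DKO, against 892 and 941 FPKM in Tcf1 KO (-0.066 ± 0.078, adjusted p = 0.544). For Cd8b1 the 95% interval of the log2 change ran from -0.26 to 0.13. Of 21 tested members of the cytotoxic and CD8 list, 6 rose (9 without DKO replicate 1) and 7 fell, with a median of -0.063, ranging from -0.11 without Tcf1 KO replicate 1 to 0.21 without DKO replicate 1. The rises were in Itgae and 5 effector genes. After Gzma came Gzmb (35.4 and 23.5 FPKM in DKO, against 3.4 and 2.99 FPKM in Tcf1 KO) and Gzmc (8.64 and 9.77 FPKM in DKO, against 1.23 and 1.47 FPKM in Tcf1 KO), granzymes of 1 gene cluster that can share reads, so their split is uncertain. Fasl, the death ligand, had 39.6 and 41.4 FPKM in DKO, against 18.6 and 18.8 FPKM in Tcf1 KO (1.07 ± 0.073), with 0.39 and 0.52 FPKM in WT. The chemokine gene Ccl4 had 2.53 and 3.56 FPKM in DKO, against 1.59 and 0.89 FPKM in Tcf1 KO, a call that ended without DKO replicate 2 or Tcf1 KO replicate 2 (adjusted p up to 0.141). Beside Cd8a and Cd226 the falls were in 5 genes. Crtam, an adhesion receptor of activated CD8 cells, had 0.71 and 1.55 FPKM in DKO, against 10.01 and 12.8 FPKM in Tcf1 KO, and Eomes, a transcription factor of effector and memory CD8 cells, had 0.48 and 0.79 FPKM in DKO, against 3.52 and 3.61 FPKM in Tcf1 KO (-1.49 ± 0.17). Klrd1, the CD94 chain of inhibitory killer receptors, had 22.01 and 27.1 FPKM in DKO, against 58.7 and 72.5 FPKM in Tcf1 KO. The protease inhibitor gene Cst7 (-1.86) and Lyst (-0.88), a regulator of lytic granules, fell too. Klrk1, the NKG2D receptor, had 2.57 and 2.49 FPKM in DKO, against 1.25 and 1.7 FPKM in Tcf1 KO and Ccl5 had 9.58 and 20.6 FPKM in DKO, against 7.71 and 9.12 FPKM in Tcf1 KO, and neither passed the test (adjusted p = 0.0795 and 0.168).

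Of 13 tested genes of memory-like CD8 cells, 3 rose and 5 fell, with a median of -0.26, or -0.052 without DKO replicate 2; without DKO replicate 1 the count of rises was 5. Il18r1, a chain of the interleukin-18 receptor, had 203 and 188 FPKM in DKO, against 45.4 and 55.8 FPKM in Tcf1 KO (1.94 ± 0.12) and 9.12 and 10.7 FPKM in WT. Bcl2, a survival gene, had 69.95 and 64.1 FPKM in DKO, against 45.1 and 47.6 FPKM in Tcf1 KO. Ly6c2 had 5.06 and 4.25 FPKM in DKO, against 24.7 and 32.6 FPKM in Tcf1 KO, but it shares reads with its close copy Ly6c1 (5.93 and 3.29 FPKM in DKO, against 6.57 and 5.82 FPKM in Tcf1 KO, not called), so its fall is uncertain. Eomes, Klrd1 and Bach2 were the other falls. Id2, an inhibitor of E proteins that acts in effector cells, had 19.4 and 11.1 FPKM in DKO, against 37.3 and 57.8 FPKM in Tcf1 KO (-1.60 ± 0.29). Its relative Id3 rose, as given above, so the 2 genes moved in opposite directions.

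Of 21 tested regulators of the CD4 or CD8 fate, 7 rose and 3 fell, with a median of 0.11, or 0.026 without DKO replicate 1 and 0.17 without Tcf1 KO replicate 2. Maf, a factor of helper and interleukin-17-producing cells, had 29.3 and 42.4 FPKM in DKO, against 4.31 and 4.72 FPKM in Tcf1 KO (2.72 ± 0.21) and 1.36 and 0.74 FPKM in WT. Ets1, of the ETS family, had 398 and 409 FPKM in DKO, against 287 and 291 FPKM in Tcf1 KO. Myb, a factor of immature and proliferating thymocytes, had 0.93 and 0.2 FPKM in DKO, against 10.6 and 9.92 FPKM in Tcf1 KO (-2.88 ± 0.23), and Bach2, a repressor that restrains effector genes, had 13.2 and 13.2 FPKM in DKO, against 20.8 and 20.8 FPKM in Tcf1 KO (-0.62 ± 0.10). Bcl11b, which keeps T cell identity, had 60.5 and 75.8 FPKM in DKO, against 63.7 and 87.1 FPKM in Tcf1 KO (adjusted p = 0.629). Of 8 tested genes of type 17 and γδ T cells, 3 rose and 1 fell. Il17re, a receptor for interleukin-17C, had 8.82 and 10.5 FPKM in DKO, against 1.06 and 1.32 FPKM in Tcf1 KO (2.28 ± 0.19), whereas Ahr, the aryl hydrocarbon receptor, had 0.54 and 0.39 FPKM in DKO, against 1.52 and 1.33 FPKM in Tcf1 KO (-0.73 ± 0.13). Beside Maf, the third rise was that of 5830411N06Rik (138 and 175 FPKM in DKO, against 84.5 and 56.9 FPKM in Tcf1 KO), which ended without DKO replicate 2 or Tcf1 KO replicate 2 (adjusted p up to 0.0605).

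Cell cycle genes fell almost throughout. Of 43 tested genes of mitosis, 40 were lower and 0 higher, beside 22.6% lower among all tested genes, and the median change was -2.07, beside -0.028 for all tested genes. The called falls ran from -3.66 to -0.96. Mki67, the marker of cycling cells Ki-67, had 0.93 and 0.68 FPKM in DKO, against 28.3 and 16.7 FPKM in Tcf1 KO (-3.66 ± 0.23, adjusted p = 0.00052), with 46.9 and 42.5 FPKM in WT. Birc5, the survivin subunit of the chromosomal passenger complex, had 1.93 and 1.5 FPKM in DKO, against 30.97 and 18.2 FPKM in Tcf1 KO. The mitotic cyclin Ccnb2 had 0.94 and 0.52 FPKM in DKO, against 19.2 and 12.9 FPKM in Tcf1 KO, and Ccna2, the cyclin of S and G2 phase, had 0.42 and 0.29 FPKM in DKO, against 14.2 and 8.93 FPKM in Tcf1 KO. Mxd3, a MYC network factor of S phase, had 0.44 and 0.13 FPKM in DKO, against 13.2 and 9.3 FPKM in Tcf1 KO. In each of these genes the WT libraries were highest, the Tcf1 KO libraries lower with replicate 1 above replicate 2, and the DKO libraries lowest. Summed over the list, the level was 98.9 and 88.9 FPKM in DKO, 452 and 304 FPKM in Tcf1 KO and 718 and 652 FPKM in WT. Hmmr, Ndc80 and Cenpa were the members not called.

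Of 34 tested genes of DNA replication, 32 fell and 1 rose, with a median of -1.21. Dtl, an adaptor of the ubiquitin ligase that destroys Cdt1, had 0.08 and 0.07 FPKM in DKO, against 6.14 and 3.97 FPKM in Tcf1 KO (-2.47 ± 0.18), and the S-phase activator E2f1 had 1.52 and 1.35 FPKM in DKO, against 12.1 and 9.5 FPKM in Tcf1 KO (-2.27 ± 0.12). Mcm10, which loads onto the helicase, had 0.1 and 0.07 FPKM in DKO, against 4.14 and 3.07 FPKM in Tcf1 KO, and the repressor E2f8 had 0.13 and 0.08 FPKM in DKO, against 4.86 and 2.86 FPKM in Tcf1 KO. The 6 core helicase subunits Mcm2 to Mcm7 all fell, with log2 changes between -1.18 in Mcm3 and -0.36 in Mcm6. The 1 rise was in Cdt1, the licensing factor that is removed in S phase (43.2 and 46.5 FPKM in DKO, against 35.9 and 34.95 FPKM in Tcf1 KO, 0.33 ± 0.055). Of 33 tested histone genes of the replication-dependent clusters, 12 fell and 2 rose, Hist2h2aa1 (0.52) and Hist3h2a (0.78). The first of these calls ended without DKO replicate 2, either Tcf1 KO library or either WT library (adjusted p up to 0.167) and the second without DKO replicate 1 or Tcf1 KO replicate 1 (adjusted p up to 0.0709). Histone genes have near-identical copies, so single members are uncertain, and the counts were 5 rises without DKO replicate 1, 0 rises without Tcf1 KO replicate 1 and 1 rise without either WT library.

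Promoters of these genes are shown because late cell cycle genes are known to carry a cell cycle homology region (TTTGAA) and CCAAT boxes close to the start, the elements through which their transcription is tied to the cycle. The letters are the 120 bases before the start in RefSeq, on the gene's own strand and in build GRCm38.p6, and capitals mark both elements, written TTCAAA and ATTGG where they lie on the other strand. Kif11, a mitotic motor, had 1.16 and 0.73 FPKM in DKO, against 14.7 and 8.79 FPKM in Tcf1 KO. Like Cdk1 and Cdc20 it was chosen after its values were seen, and all 4 genes were lower in DKO.
Ccnb2, chr9:70421555-70421674, minus strand: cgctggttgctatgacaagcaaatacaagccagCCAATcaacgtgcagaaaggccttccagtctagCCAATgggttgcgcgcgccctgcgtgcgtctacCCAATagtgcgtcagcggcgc
Cdk1, chr10:69352913-69353032, minus strand: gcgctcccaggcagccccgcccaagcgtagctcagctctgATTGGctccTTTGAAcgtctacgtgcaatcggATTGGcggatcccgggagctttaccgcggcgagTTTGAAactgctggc
Cdc20, chr4:118437344-118437463, minus strand: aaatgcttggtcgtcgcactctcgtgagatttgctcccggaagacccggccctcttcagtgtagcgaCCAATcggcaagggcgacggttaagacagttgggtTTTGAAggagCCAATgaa
Kif11, chr19:37376262-37376381, plus strand: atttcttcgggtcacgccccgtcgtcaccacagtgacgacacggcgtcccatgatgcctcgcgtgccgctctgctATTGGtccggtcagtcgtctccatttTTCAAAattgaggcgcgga
Ccnb2 holds 3 CCAAT boxes, at 87, 54 and 21 bases before the start. Cdk1, the mitotic kinase (0.36 and 0.24 FPKM in DKO, against 6.89 and 3.87 FPKM in Tcf1 KO), holds TTTGAA at 71 and 15 bases and ATTGG at 80 and 48 bases before it. Cdc20, the activator of the anaphase-promoting complex (3 and 2.52 FPKM in DKO, against 17.2 and 12.6 FPKM in Tcf1 KO), holds TTTGAA at 18 bases. Counted on either strand in the 250 bases before the start, TTTGAA was found in 36.1% of the 36 mitosis genes with a promoter entry, 22.2% of 27 replication genes and 11% of all 5313 tested genes with one. It was in 12.8% of 109 genes at least 2-fold higher and 23% of 230 genes at least 2-fold lower in DKO. CCAAT was in 69.4% of the mitosis genes, 63% of the replication genes and 37.8% of all. A match describes the letters in that window and was not tested as a site.

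Genes that hold the cycle back were divided, with more rises than falls. Of 14 tested cyclin-dependent kinase inhibitors and quiescence genes, 8 rose and 2 fell, with a median of 0.37. Cdkn1b, the inhibitor p27, had 166 and 134 FPKM in DKO, against 78.7 and 79.02 FPKM in Tcf1 KO (0.91 ± 0.099), and the growth arrest genes Gadd45a (13.1 and 11.1 FPKM in DKO, against 5.51 and 4.96 FPKM in Tcf1 KO) and Gadd45b (11.7 and 10.6 FPKM in DKO, against 4.34 and 4.77 FPKM in Tcf1 KO) rose with it. Klf2 is a member of this list, and Klf6 rose by 0.84. Cdkn2c, the inhibitor p18, went down, with 1.89 and 3.37 FPKM in DKO, against 8.08 and 7.27 FPKM in Tcf1 KO (-1.29 ± 0.20). The other fall was in Cdkn2d (-0.27), which ended without either DKO library or either Tcf1 KO library or under median scaling (adjusted p up to 0.146) and alone moved this count. Of 14 tested genes of the G1 cyclins and the MYC network, 2 rose and 3 fell. The shares among all tested genes were 15.9% higher and 22.6% lower. Ccnd2, a D-type cyclin, had 73.4 and 55.8 FPKM in DKO, against 182 and 167 FPKM in Tcf1 KO (-1.43 ± 0.13). Myc had 21.02 and 25.4 FPKM in DKO, against 43.6 and 44.8 FPKM in Tcf1 KO (-0.91 ± 0.12), and Cdk4, the partner kinase of D-type cyclins, had 60.1 and 66.6 FPKM in DKO, against 105 and 104 FPKM in Tcf1 KO. Mxi1, a factor that opposes MYC, had 16.8 and 13.6 FPKM in DKO, against 5.44 and 5.5 FPKM in Tcf1 KO (1.32 ± 0.14). The other rise was in Mlx (0.21), whose call ended without either DKO library, Tcf1 KO replicate 1 or either WT library. It also ended with a pseudocount of 0.1 (adjusted p = 0.0511) or 0.5 (adjusted p = 0.0502) and with the 4 libraries alone (adjusted p = 0.0991).

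**Figure D4:**
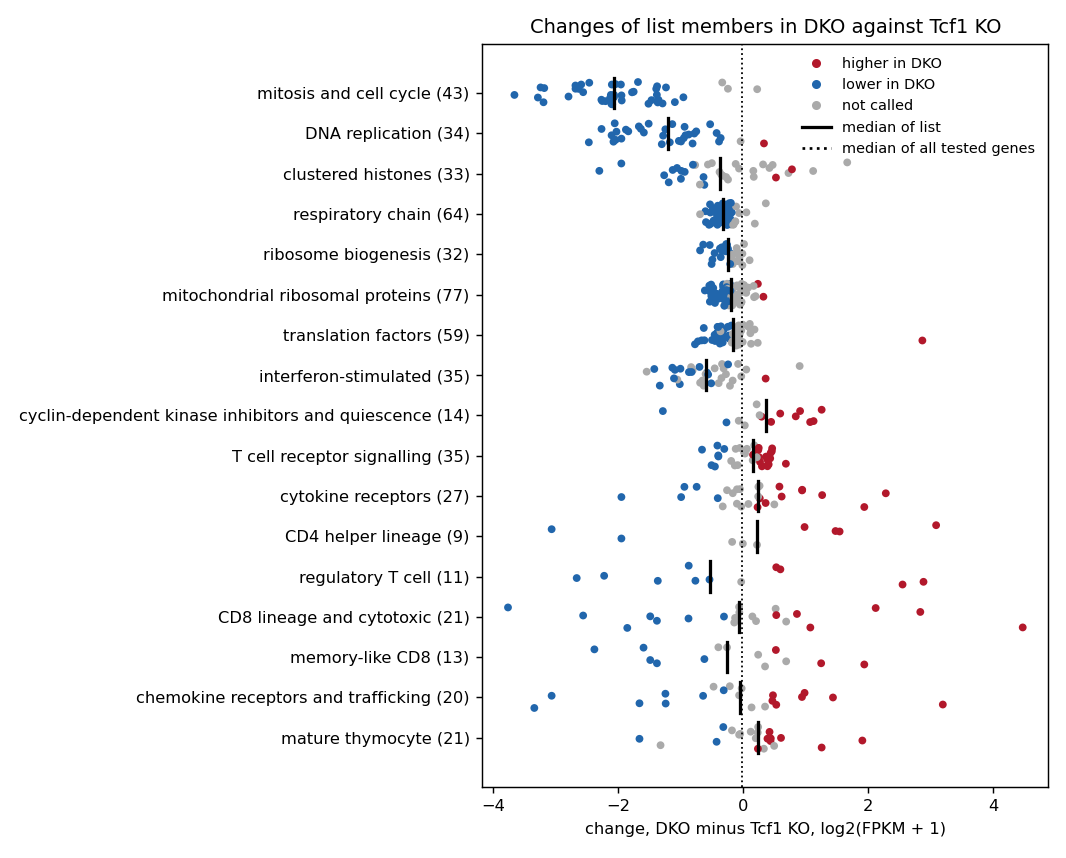
Each row is a gene list with its number of tested members, and each point is 1 member at its log2 change, DKO minus Tcf1 KO, coloured by its call. Short black lines are list medians, from -2.07 for mitosis to 0.37 for quiescence genes, and the dotted line is the median of all tested genes at -0.028.

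Many genes of energy production and protein synthesis fell by small amounts, beside 22.6% lower among all tested genes. Of 64 tested subunits of respiratory complexes I and IV and the ATP synthase, 53 fell and 0 rose, with a median of -0.32 and called falls between -0.60 and -0.18. Ndufa12 of complex I had 38.6 and 38.8 FPKM in DKO, against 58.8 and 59.2 FPKM in Tcf1 KO. Cox7a2 of complex IV had 51.3 and 43.8 FPKM in DKO, against 72.5 and 66.99 FPKM in Tcf1 KO. Atp5g2 of the ATP synthase had 137 and 152 FPKM in DKO, against 209 and 209 FPKM in Tcf1 KO. In these the DKO libraries lay just below the Tcf1 KO ones. The number was 35 falls without either Tcf1 KO library and 43 falls under median scaling. Of 77 mitochondrial ribosomal protein genes, 34 fell and 2, Mrpl9 (0.23) and Mrps26 (0.32), rose (median -0.20), with 0 rises without either Tcf1 KO library, 1 rise without either WT library and 20 falls without Tcf1 KO replicate 1 and 18 falls without Tcf1 KO replicate 2. The call of Mrpl9 ended without DKO replicate 1, either Tcf1 KO library or either WT library (adjusted p up to 0.172) and that of Mrps26 without either Tcf1 KO library (adjusted p up to 0.0838). Under median scaling, 27 mitochondrial ribosomal protein genes fell and 3 rose (median -0.15). Mrpl52 had 39.1 and 41.6 FPKM in DKO, against 61.6 and 62.96 FPKM in Tcf1 KO and Mrps28 had 12.7 and 12.8 FPKM in DKO, against 19.01 and 18.7 FPKM in Tcf1 KO.

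Of 32 tested genes of ribosome biogenesis, 19 fell and 0 rose (median -0.25), with 9 falls without Tcf1 KO replicate 1 and 7 falls without Tcf1 KO replicate 2. Under median scaling, 14 ribosome biogenesis genes fell and 0 rose (median -0.20). Npm1, the nucleolar chaperone nucleophosmin, had 218 and 224 FPKM in DKO, against 373 and 343 FPKM in Tcf1 KO (-0.69 ± 0.066), and Fbl, the ribosomal RNA methylase fibrillarin, fell by 0.46 on the log2 scale. Of 59 tested translation factors, 26 fell and 1 rose (median -0.17), the rise being that of Eif3j2. Eef1b2, an exchange factor of elongation, had 193 and 216 FPKM in DKO, against 325 and 323 FPKM in Tcf1 KO (-0.67 ± 0.065). Eef1g had 268 and 287 FPKM in DKO, against 428 and 432 FPKM in Tcf1 KO. The initiation factor subunit Eif3e had 101 and 104 FPKM in DKO, against 162 and 155 FPKM in Tcf1 KO. Eif2ak3, the stress kinase PERK, had 13.7 and 12.96 FPKM in DKO, against 25.9 and 21.3 FPKM in Tcf1 KO. The counts were 4 rises without DKO replicate 2, 2 rises under median scaling and 16 falls without Tcf1 KO replicate 1. Under median scaling, 20 translation factors fell (median -0.12). In glycolysis, 6 of 12 tested genes fell and 2 rose (median -0.34). Ldha had 221 and 206 FPKM in DKO, against 332 and 295 FPKM in Tcf1 KO (-0.55 ± 0.071) and the other lactate dehydrogenase gene, Ldhb, had 42.4 and 35.02 FPKM in DKO, against 23.3 and 24.8 FPKM in Tcf1 KO (0.66 ± 0.11), so the 2 chains moved in opposite directions. The second rise was in Bpgm (0.43), which ended without DKO replicate 2, either Tcf1 KO library or either WT library (adjusted p up to 0.128).

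Of 27 tested cytokine receptors and their kinases, 10 rose and 5 fell (median 0.23, or 0.14 without DKO replicate 2 and 0.070 without Tcf1 KO replicate 2). Both chains of the interleukin-18 receptor rose, Il18rap with 4.2 and 2.88 FPKM in DKO, against 0.78 and 0.97 FPKM in Tcf1 KO (1.26 ± 0.17) beside Il18r1. Il4ra, the interleukin-4 receptor chain, had 55.8 and 76.1 FPKM in DKO, against 33.5 and 33.5 FPKM in Tcf1 KO (0.94 ± 0.14), and Il17ra, the shared chain of interleukin-17 receptors, had 192 and 159 FPKM in DKO, against 89.8 and 90.5 FPKM in Tcf1 KO (0.94 ± 0.090). Signal chains of interleukin-6 fell together: beside Il6ra, Il6st, which encodes gp130, had 14.8 and 15.4 FPKM in DKO, against 27.5 and 35.1 FPKM in Tcf1 KO (-0.99 ± 0.14). Il12rb2, the inducible chain of the interleukin-12 receptor, had 0.48 and 0.53 FPKM in DKO, against 1.86 and 1.92 FPKM in Tcf1 KO, and the other falls were in Il12rb1 (-0.41) and Cish (-0.75), a feedback inhibitor of cytokine signals. The call of Il12rb1 ended without DKO replicate 2, either Tcf1 KO library or either WT library or under quantile scaling (adjusted p up to 0.136) and that of Cish without either DKO library or either Tcf1 KO library (adjusted p up to 0.0888). Il7r, the survival receptor of resting T cells, had 116 and 132 FPKM in DKO, against 105 and 104 FPKM in Tcf1 KO (adjusted p = 0.218). The number was 3 falls without either Tcf1 KO library.

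Of 20 tested chemokine receptors and trafficking genes, 7 rose and 7 fell, beside 15.9% higher and 22.6% lower among all tested genes. The median was -0.046, ranging from -0.12 without DKO replicate 1 to 0.0046 under median scaling. Beside Ccr2 and Ccr4, Gpr183, the receptor for oxysterols that guides cells within lymphoid tissue, had 11.9 and 13 FPKM in DKO, against 3.47 and 4.52 FPKM in Tcf1 KO (1.44 ± 0.12), and the integrin chain Itga4 had 101 and 119 FPKM in DKO, against 56.6 and 56.9 FPKM in Tcf1 KO. Ccr7, which guides cells to lymph nodes and the thymic medulla, had 55.5 and 75.4 FPKM in DKO, against 195 and 219 FPKM in Tcf1 KO (-1.66 ± 0.14, adjusted p = 0.000973). Cx3cr1, the fractalkine receptor, also fell (0.42 and 0.7 FPKM in DKO, against 2.2 and 3.24 FPKM in Tcf1 KO). Of 7 tested inhibitory receptors, 3 rose and 2 fell. Lair1, a collagen receptor, had 5.5 and 6.38 FPKM in DKO, against 2.58 and 2.86 FPKM in Tcf1 KO (0.90 ± 0.11), and Btla had 10.9 and 14.7 FPKM in DKO, against 22.8 and 25.1 FPKM in Tcf1 KO, a fall whose call ended without Tcf1 KO replicate 2 (adjusted p = 0.0502). Lag3 (3.24), Ctla4 and Cd160 complete these counts. Of 14 tested costimulatory and adhesion receptors, 5 rose and 1, Cd226, fell, with 3 rises without either Tcf1 KO library and 3 rises without either WT library. Cd28, the main costimulator of naive T cells, had 43.3 and 33.1 FPKM in DKO, against 19.8 and 19.4 FPKM in Tcf1 KO (0.92 ± 0.12). The other rises were in Cd40lg, Cd27 (0.32), Cd53 (0.33) and Cd84 (0.36). The call of Cd27 ended without either Tcf1 KO library or either WT library (adjusted p up to 0.103) and that of Cd84 without DKO replicate 2, either Tcf1 KO library or either WT library or under quantile scaling (adjusted p up to 0.158).

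Of 35 tested genes of T cell receptor signalling, 16 rose and 7 fell (median 0.16), the largest change being 0.68, in Orai2. Orai2, of the store-operated calcium channels, had 169 and 172 FPKM in DKO, against 98.1 and 114 FPKM in Tcf1 KO. Nfatc3 had 59.1 and 57.3 FPKM in DKO, against 41.8 and 42.2 FPKM in Tcf1 KO and Itpkb, a kinase of inositol trisphosphate, had 89.95 and 85.4 FPKM in DKO, against 63.4 and 63.8 FPKM in Tcf1 KO. The Src family kinase Fyn rose by 0.43, whereas its relative Lck had 498 and 502 FPKM in DKO, against 537 and 502 FPKM in Tcf1 KO (adjusted p = 0.447). Itpr1, a calcium release channel, had 6.3 and 5.91 FPKM in DKO, against 10.3 and 10.2 FPKM in Tcf1 KO (-0.66 ± 0.076), and the NF-κB genes Nfkb1 (-0.51) and Nfkb2 (-0.45) fell. Of 23 tested immediate early genes, 4 rose and 7 fell, beside 15.9% higher and 22.6% lower among all tested genes. Nr4a3, an orphan receptor induced by antigen receptor signals, had 1.72 and 2.27 FPKM in DKO, against 5.59 and 4.66 FPKM in Tcf1 KO (-1.03 ± 0.13). Fosl2, an AP-1 subunit, had 3.26 and 4.08 FPKM in DKO, against 7.13 and 6.04 FPKM in Tcf1 KO (-0.70 ± 0.13). The rises were in Ier3, Btg2 (0.59), Jund (0.36) and Dusp6 (0.25). The call of Jund ended without Tcf1 KO replicate 2 (adjusted p = 0.0609) and that of Dusp6 without DKO replicate 2, either Tcf1 KO library or either WT library (adjusted p up to 0.111). Egr1 had 33.97 and 30.9 FPKM in DKO, against 42.8 and 35.3 FPKM in Tcf1 KO and Fos had 3.9 and 6.56 FPKM in DKO, against 3.81 and 5.38 FPKM in Tcf1 KO, and neither passed the test (adjusted p = 0.117 and 0.749). The counts were 2 rises without Tcf1 KO replicate 2, 3 falls without either Tcf1 KO library, 4 falls without either WT library and 4 falls under median scaling.

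Of 26 tested genes of apoptosis and survival, 6 rose and 6 fell, beside 15.9% higher and 22.6% lower among all tested genes. The median was 0.059, ranging from 0.011 without Tcf1 KO replicate 1 to 0.11 under median scaling. Bmf, a BH3-only death gene, had 1.85 and 2.39 FPKM in DKO, against 17.6 and 13.6 FPKM in Tcf1 KO (-2.41 ± 0.15), and Bcl2l2, which encodes the survival protein BCL-w, had 0.69 and 0.47 FPKM in DKO, against 2.46 and 3.13 FPKM in Tcf1 KO (-1.26 ± 0.13). Bcl2a1b had 2.77 and 3.3 FPKM in DKO, against 6.66 and 5.35 FPKM in Tcf1 KO, but the Bcl2a1 copies share reads and its value is uncertain. Bid, a BH3-only link between death receptors and mitochondria, had 17.1 and 16.4 FPKM in DKO, against 9.87 and 11.1 FPKM in Tcf1 KO (0.62 ± 0.077). The abundant survival gene Mcl1 had 207 and 158 FPKM in DKO, against 193 and 195 FPKM in Tcf1 KO (adjusted p = 0.546), and the BH3-only gene Bcl2l11 had 20.5 and 17.5 FPKM in DKO, against 24.96 and 22.8 FPKM in Tcf1 KO (adjusted p = 0.0607).

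Stage markers were mixed. Of 21 tested genes of mature thymocytes, 8 rose and 3 fell (median 0.23); without DKO replicate 1, 5 fell. Cd55, which protects cells from complement, had 17.4 and 22.5 FPKM in DKO, against 3.76 and 5.47 FPKM in Tcf1 KO (1.91 ± 0.18). Gimap3, a GTPase of lymphocyte survival, had 390.2 and 408 FPKM in DKO, against 278 and 248 FPKM in Tcf1 KO, and Ly6e had 254 and 259.9 FPKM in DKO, against 358 and 334 FPKM in Tcf1 KO. Ccr7 and H2-K1 were the other falls. Of 12 tested genes of immature double-positive thymocytes, 4 rose and 4 fell. Dntt, the terminal transferase of rearranging thymocytes, had 10.2 and 9.36 FPKM in DKO, against 28.3 and 24.4 FPKM in Tcf1 KO (-1.34 ± 0.10) and 9.1 and 8.03 FPKM in WT, so its Tcf1 KO level was the highest. Mns1 (-0.98), Ly6d (-1.12) and Cd69 were the other falls. Aqp11, an aquaporin gene, had 6.92 and 6.51 FPKM in DKO, against 2.81 and 2.96 FPKM in Tcf1 KO (0.99 ± 0.091), and Ccr9, the thymic and gut chemokine receptor, had 273 and 258 FPKM in DKO, against 202 and 182 FPKM in Tcf1 KO. Cd1d1 (0.37) and Lmo4 (0.27) also rose. The call of Ly6d ended without DKO replicate 2, either Tcf1 KO library or either WT library or under median scaling or quantile scaling (adjusted p up to 0.156), that of Cd1d1 without DKO replicate 1 or either Tcf1 KO library (adjusted p up to 0.0896) and that of Lmo4 without DKO replicate 1, either Tcf1 KO library or either WT library (adjusted p up to 0.118), and the counts were 2 rises without DKO replicate 1, 2 rises without either Tcf1 KO library, 2 falls without DKO replicate 2, 2 falls without either Tcf1 KO library and 2 falls under median scaling. Of the markers that the sort gate excluded, Cd69 had 27.2 and 27.1 FPKM in DKO, against 33.2 and 31.6 FPKM in Tcf1 KO and Cd24a had 5.76 and 2.79 FPKM in DKO, against 4.32 and 2.74 FPKM in Tcf1 KO. The call of Cd69 as lower ended without either DKO library or either Tcf1 KO library or under median scaling (adjusted p up to 0.127).

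Of 26 tested genes of the Wnt and TCF/LEF pathway, 6 rose and 7 fell, beside 15.9% higher and 22.6% lower among all tested genes. The median was 0.078, or 0.13 under median scaling and 0.028 without Tcf1 KO replicate 1. Fewer rises were called without either Tcf1 KO library, and fewer falls without Tcf1 KO replicate 2. Axin2, a negative regulator and a classic target of β-catenin with TCF/LEF factors, had 21 and 20.5 FPKM in DKO, against 9.59 and 10.6 FPKM in Tcf1 KO (0.97 ± 0.076, adjusted p = 0.00077), higher in cells that lack both factors. Bcl9l, a β-catenin coactivator, had 74.5 and 84.8 FPKM in DKO, against 40.5 and 46.4 FPKM in Tcf1 KO (0.86 ± 0.096), and its relative Bcl9 had 6.67 and 8.39 FPKM in DKO, against 10.9 and 14.2 FPKM in Tcf1 KO (-0.67 ± 0.15), so the pair moved in opposite directions, though the call of Bcl9 ended without DKO replicate 1 or Tcf1 KO replicate 2 (adjusted p up to 0.0826). Ctnnbip1, an inhibitor that keeps β-catenin off TCF/LEF factors, had 0.73 and 1.05 FPKM in DKO, against 3.35 and 3.59 FPKM in Tcf1 KO (-1.25 ± 0.12). Ctnnb1, β-catenin itself, had 117 and 102 FPKM in DKO, against 107 and 96.4 FPKM in Tcf1 KO (adjusted p = 0.433).

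The element CTTTGAA or CTTTGAT, which TCF/LEF factors bind, was looked for on both strands in the 250 bases before the start; its first form contains TTTGAA. It was in 5.5% of the 109 genes at least 2-fold higher, 4.78% of the 230 at least 2-fold lower and 5.21% of all 5313 tested genes with a promoter entry. Without the 2-fold limit it was in 3.8% of 841 higher and 5.08% of 1239 lower genes, and in 5.63% of 3233 genes not called. Of the 31 genes of the largest changes and Lef1, 21 had an entry and 0 held the element. A pair of rising receptor genes is shown, chosen because they hold it, and Ccr4 (0.98) is outside the 2-fold class. Each is given as 60 bases on the gene's strand in GRCm38.p6, with the opposite-strand form TTCAAAG in capitals.
Ccr4, chr9:114496545-114496604, minus strand: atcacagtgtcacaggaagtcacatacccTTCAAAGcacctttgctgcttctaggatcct
Il18rap, chr1:40515112-40515171, plus strand: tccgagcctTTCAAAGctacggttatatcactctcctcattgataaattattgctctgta
The match lies 31 bases before the start of Ccr4 and 241 bases before that of Il18rap. These windows leave out enhancers and silencers, where these factors often bind.

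Interferon-stimulated genes were lower in part: of 35 tested, 14 fell and 1, Irf1 (0.36), rose, with a median of -0.60, or -0.31 without DKO replicate 2. Ifi27l2a had 188 and 128 FPKM in DKO, against 355 and 331 FPKM in Tcf1 KO (-1.13 ± 0.17), and Isg20, an exonuclease, had 17.3 and 13.4 FPKM in DKO, against 33.8 and 30 FPKM in Tcf1 KO (-1.02 ± 0.12), both with the DKO libraries below the others. Other members separated the DKO libraries from each other. The antiviral synthetase Oas1a had 5.66 and 0.66 FPKM in DKO, against 10.4 and 7.26 FPKM in Tcf1 KO (adjusted p = 0.101), and the GTPase Iigp1 had 16.3 and 1.82 FPKM in DKO, against 11.5 and 8.34 FPKM in Tcf1 KO (adjusted p = 0.567). DKO replicate 1 was above DKO replicate 2 in 34 of the 35 genes, by a median of 0.57 on the log2 scale, and Tcf1 KO replicate 1 above replicate 2 by a median of 0.22. The counts were 3 rises without DKO replicate 2, 0 rises without Tcf1 KO replicate 2, 31 falls without DKO replicate 1, 5 falls without Tcf1 KO replicate 1 and 8 falls without Tcf1 KO replicate 2 and 9 falls without either WT library. The call of Irf1 ended without Tcf1 KO replicate 2 (adjusted p = 0.0552).

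The heat shock and stress genes showed the same split. DKO replicate 1 was above DKO replicate 2 in 16 of 19 tested genes, by a median of 0.61, and Tcf1 KO replicate 1 above replicate 2 by 0.14. Hsph1, a chaperone of the HSP110 family, had 90.1 and 18.8 FPKM in DKO, against 44.7 and 22.8 FPKM in Tcf1 KO (adjusted p = 0.719), and Hspa8, the constitutive HSP70, had 1157 and 492 FPKM in DKO, against 1007 and 701 FPKM in Tcf1 KO (adjusted p = 0.787). Of this list 1 gene rose and 3 fell, with 6 rises without DKO replicate 2, 0 rises without Tcf1 KO replicate 1, 2 rises under median scaling, 7 falls without DKO replicate 1 and 1 fall without DKO replicate 2, 1 fall without Tcf1 KO replicate 1, 1 fall without either WT library and 1 fall under median or quantile scaling. Ddit4, a stress-induced inhibitor of mTOR, had 79.7 and 45.5 FPKM in DKO, against 197 and 196 FPKM in Tcf1 KO (-1.69 ± 0.26) and kept its call under all 16 alternatives. The other falls, in Atf5 (-0.38) and Hif1a (-0.18), did not: that of Atf5 ended without DKO replicate 2, Tcf1 KO replicate 1 or either WT library or under median scaling or quantile scaling (adjusted p up to 0.140) and that of Hif1a without either DKO library, either Tcf1 KO library or either WT library or under median scaling or quantile scaling (adjusted p up to 0.167). Hspa1b, the 1 rise, can share reads with Hspa1a and lost its call without Tcf1 KO replicate 1 (adjusted p = 0.0663).

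**Figure D5:**
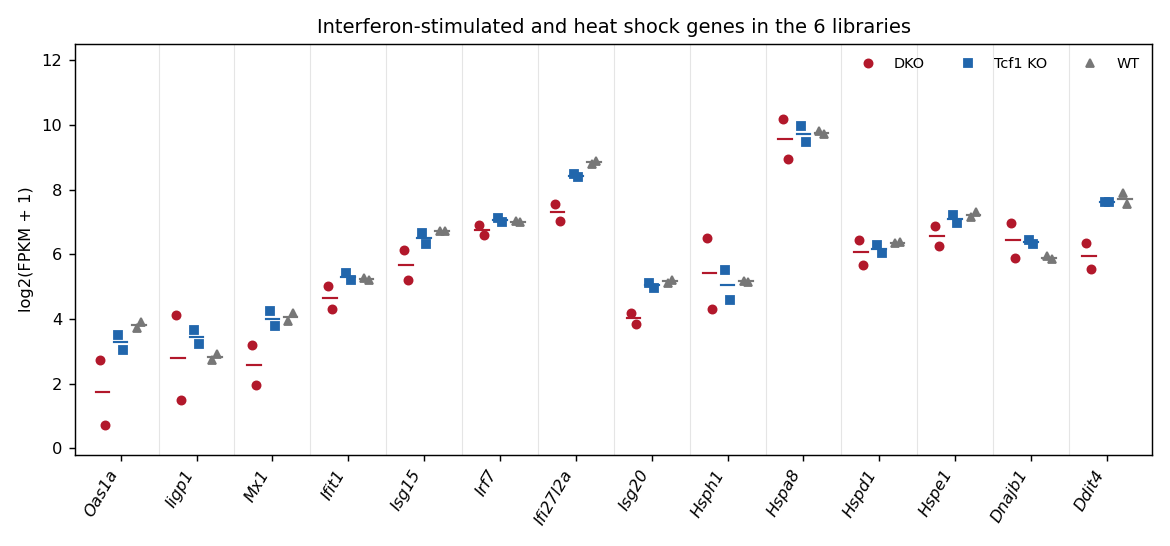
Levels of 8 interferon-stimulated genes (left) and 6 heat shock or stress genes (right) as log2(FPKM + 1), 1 point per library and a bar at the mean of 2, for DKO, Tcf1 KO and WT. The DKO points of Oas1a, Iigp1 and Hsph1 are far apart, whereas those of Isg20 are close and lie below all other libraries.

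Of 37 tested chromatin and DNA methylation genes, 9 rose and 10 fell, beside 15.9% higher and 22.6% lower among all tested genes. The median was -0.033, ranging from -0.033 without WT replicate 1 to 0.018 under median scaling. Fewer rises were called without DKO replicate 2 or either Tcf1 KO library, and fewer falls without Tcf1 KO replicate 1. Hmgb2, a chromatin protein of dividing cells, had 29.2 and 26.96 FPKM in DKO, against 98.04 and 69.4 FPKM in Tcf1 KO (-1.52 ± 0.16), and Ezh2, the methyltransferase of Polycomb complex 2, had 16.5 and 13.04 FPKM in DKO, against 28.8 and 23.2 FPKM in Tcf1 KO. Arid5b had 2.37 and 2.57 FPKM in DKO, against 6.14 and 6.96 FPKM in Tcf1 KO (-1.12 ± 0.091), and the DNA methyltransferase Dnmt3a had 15.2 and 15.4 FPKM in DKO, against 27.9 and 26.3 FPKM in Tcf1 KO. Of 18 tested genes of cholesterol synthesis and uptake, 1 rose and 2 fell. The rise of Lss ended without either DKO library, either Tcf1 KO library or either WT library (adjusted p up to 0.171), the fall of Mvk without either DKO library or Tcf1 KO replicate 2 (adjusted p up to 0.0647) and that of Fdft1 without DKO replicate 1, either Tcf1 KO library or either WT library or under median scaling or quantile scaling (adjusted p up to 0.209).

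Markers of other cells were low or mixed. The 14 myeloid markers summed to 6.25 and 4.85 FPKM in DKO, 6.19 and 6.41 FPKM in Tcf1 KO and 6.78 and 5.94 FPKM in WT, and those tested, Cd68 and Lyz2, were not called, while the other 12 stayed at or below 1.04 FPKM. The 11 B cell markers, of which 3 were tested, summed to 30.7 and 38.6 FPKM in DKO and 31.9 and 35.5 FPKM in Tcf1 KO. Cd79b had 20.99 and 23.5 FPKM in DKO, against 13.8 and 15.6 FPKM in Tcf1 KO (0.57 ± 0.089), and Cd72 (7.02 and 11.6 FPKM in DKO, against 16.1 and 17.8 FPKM in Tcf1 KO) was lower, a call that ended without either Tcf1 KO library or either WT library (adjusted p up to 0.107). The 11 stromal markers, of which 2 were tested, summed to 3.81 and 4.54 FPKM in DKO and 2.74 and 2.12 FPKM in Tcf1 KO. The endothelial cadherin gene Cdh5 had 1.52 and 1.95 FPKM in DKO, against 0.45 and 0.4 FPKM in Tcf1 KO. Of 12 erythroid markers 2 were tested and Car2, a carbonic anhydrase, had 16.4 and 16.3 FPKM in DKO, against 5.37 and 5.44 FPKM in Tcf1 KO (1.43 ± 0.060), while Gata1 (2.21 and 2.89 FPKM in DKO, against 2.92 and 3.04 FPKM in Tcf1 KO) was not called and the other 10 stayed at or below 0.8 FPKM.

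Of 11 markers of NK, NKT and γδ T cells, 5 were tested, 3 rose (Il17re, Il18r1 and 5830411N06Rik) and 1, Cd160, fell. All 11 summed to 356 and 382 FPKM in DKO, 164 and 148 FPKM in Tcf1 KO and 44.01 and 48.8 FPKM in WT. Most of the DKO sum came from Il18r1 (203 and 188 FPKM) and 5830411N06Rik (138 and 175 FPKM). Il18r1 is also in the list of memory-like CD8 cells. The 6 markers not tested, among them the NK receptor gene Ncr1, stayed at or below 1.09 FPKM in each library. The part of such cells in the rises of Gzma, Gzmb, Maf and the interleukin-18 receptor genes was not tested. The 10 markers of mature CD8 T cells summed to 4908 and 5131 FPKM in DKO, 4767 and 4928 FPKM in Tcf1 KO and 4241 and 4445 FPKM in WT, and all 10 passed the filter, with Cd3e at 750.0 and 795 FPKM in DKO, against 675 and 716 FPKM in Tcf1 KO. The part of cells other than CD8 T cells in the rises of Cd4 and Foxp3 was not tested either.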

How the data were processed

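RNA of sorted mature CD8 thymocytes was sequenced in 3 genotypes with 2 libraries each, grouped by the genotype label. The deposited values are FPKM per gene, made by the authors. Per the submitters' processing notes, RSEM 1.2.21 and FastQC were used with build mm9. Which aligner, gene models and filters were used is not given in the sources used here. Where genes are similar, RSEM splits the reads they share, which makes near copies uncertain. The table used lists 16383 genes ending at Pcsk5, and later genes are not analysed here. The depth is unknown, since the files give no counts. 13 symbols that had become dates were restored from the RefSeq accession of their row.

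Genes with at least 1 FPKM in at least 2 libraries (6761, with 9622 set aside) were fitted as log2(FPKM + 1) in limma 3.58.1 (R 4.3.3), with all 6 libraries in 1 fit, genotype as the only term and a variance trend. The contrast was DKO minus Tcf1 KO, 2-sided, with Benjamini-Hochberg adjustment over all tested genes. The fit was also run on simulated data with changes of at least 2-fold in genes of at least 5 FPKM. That run does not cover smaller changes or lower genes, and its outcome is not given here. Errors are SE of the log2 change. Alternatives were other pseudocounts, filters and scalings, the 4 libraries alone, no trend, a replicate block and each library left out.

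The comparison and the 37 gene lists were chosen with earlier results of these data known. Named genes are Lef1, the 15 largest rises and falls whose libraries do not overlap, the 6 largest in FPKM each way, up to 4 called members of each list, and fixed lineage genes. Gene models with provisional names, such as those ending in Rik, were left out of the rankings by log2 change and by FPKM. Further members are named to complete a count or to set a gene beside its relatives, chosen after their values were seen. The rule names 1 gene, with a larger fall than Gramd3, that is not reported here. Promoters are from the RefSeq table of GRCm38.p6, whose coordinates are not those of mm9, and 5313 of the 6761 tested genes had an entry. Genes were matched by the RefSeq accessions of their row, or by symbol where no accession matched.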

Additional observations from a re-analysis of the deposited data

How the results depend on the processing

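The counts of genes in DKO against Tcf1 KO were 1072 higher and 1527 lower. With 1 library left out they ranged from 597 to 927 higher and from 941 to 1348 lower, the lowest without a Tcf1 KO library. With the replicate number as a block, 1176 were higher and 1636 lower. Replicate 1 deviations correlated across genes at 0.147 between DKO and Tcf1 KO and at 0.154 between DKO and WT. Between Tcf1 KO and WT the value was 0.0454. These correlations are low, but the block gave more calls in both directions. Whether the replicate numbers pair the samples is therefore unknown, since a low correlation across all genes cannot exclude pairing. With at least 5 FPKM required in 2 libraries, 102 genes were at least 2-fold higher, against 157, in a test of fewer genes (5192). The other alternatives kept these 4 counts within 1.5 times. Of 138 named calls, 126 were tested in all 16 alternatives and 103 of these passed in each, while 116 of the 138 passed whichever library was left out, and 0 reversed. With 2 libraries per genotype and 3 residual degrees of freedom, small changes near the threshold are the least secure, and without read counts no counting error could be given for low genes.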

Other observations

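The libraries of a genotype differed at least 2-fold from each other in 108 of 6761 tested genes in DKO, 69 in Tcf1 KO and 74 in WT. Of these, 61, 57 and 67 were microRNA entries, whose transcripts are short. Of 192 tested microRNA entries, 17 were called higher and 11 lower in DKO than in Tcf1 KO, and none is named here. Outside those entries, the nonclassical MHC class I genes H2-Q7 (105 and 22.5 FPKM in DKO, 121 and 127 FPKM in Tcf1 KO) and H2-Q9 (151 and 36.6 FPKM in DKO, 154 and 159 FPKM in Tcf1 KO) were among those apart between the DKO libraries, chosen after their values were seen. Both can share reads with other H2-Q genes.

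Eif3j2 and Eif3j1 moved in opposite directions. Eif3j1 had 17.4 and 17.5 FPKM in DKO, against 30.7 and 28.3 FPKM in Tcf1 KO, a fall that lost its call in 10 of the 16 alternatives, and the sum of both genes was not tested.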
